A study of Mus musculus with 16 samples.

Results

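The comparison described here asks how the brain transcriptome of old mice differed after a long period on a ketogenic diet. It takes in 8 of the 16 RNA-sequencing libraries of the study, chosen by the diet and age given in the labels: 4 libraries of mice fed the ketogenic diet (named O, P, Q and R) and 4 of mice fed the control diet (K, L, M and N), all harvested at 26 months of age. Diet assignment was random and began when the animals were 12 months old, so these mice had spent 14 months on their diet. The other 8 libraries are from mice of 13 months, 4 for each diet, after 1 month. RNA was taken from brain, without a named region. The sources used here do not state strain, sex, the composition of the diets or whether a library is 1 animal, so the spread between libraries may be partly technical.

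A ketogenic diet supplies most energy as fat and very little as carbohydrate. The liver then turns fatty acids into the ketone bodies beta-hydroxybutyrate and acetoacetate, which enter the brain through monocarboxylate transporters and are split to acetyl-CoA in mitochondria. Oligodendrocytes, the cells that wrap axons in myelin, are known to burn and exchange such small carboxylates and need acetyl units for myelin lipids. Mag, Mog and Cnp encode proteins of the myelin sheath and of the oligodendrocyte membrane.

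The 26-month libraries held between 11229822 and 15244460 counts. Transcripts of neurons, astrocytes and oligodendrocytes were abundant in all 8 libraries: summed over marker lists, excitatory neurons reached 2150 to 2660 CPM (counts scaled to the library total), astrocytes 3530 to 4610 and oligodendrocytes 3710 to 5850. Alb, the albumin of liver, had at most 55 counts, and Gh and Prl, the hormones of the pituitary, at most 10 and 1. Other tissue was present: summed, the choroid plexus list ran from 311 to 939 CPM, that of meningeal fibroblasts from 95.5 to 191 and that of red blood cells from 236 to 1380. No pair of libraries within a 26-month group agreed within sampling noise (chi-square per degree of freedom 6.53 to 141), so all 8 were counted. Library K among the controls and R among the ketogenic libraries stood apart from the rest, as did 1 library in each 13-month group. In these 4 libraries the 18S ribosomal RNA gene took 0.0372% to 0.425% of the counts, against 2.44% to 8.71% in the other 12, and they lay at one end of the first principal component, which held 41.7% of the variance. They are called low-18S libraries below, and results are given with and without them.

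After 14 months of the ketogenic diet no gene passed the test in the model with group means alone. edgeR's quasi-likelihood test called 0 of 17762 genes (0%) at an adjusted p below 0.05, with a smallest adjusted p of 0.857, and DESeq2 also called 0, with a smallest adjusted p of 0.0556. Genes of myelin and of the oligodendrocyte lineage were among the few called under an alternative model that gave the low-18S libraries a term of their own. There Mag, Mog, Cnp, Olig1 and S100b rose, and Lrch2, Serpini1, Fgf12 and Ppp3r1 fell. The fold changes estimated by the model with group means were 1.23 to 1.29 for the former and 0.758 to 0.855 for the latter. Genes of ketone body use passed in neither model. Every call below rests on that term or on leaving out the low-18S libraries. At an unadjusted p below 0.05 the edgeR model had 953 genes (5.37%), 370 higher (2.08%) and 583 lower (3.28%). All ketogenic libraries lay above all control libraries for 238 genes (1.34%), and below them for 392 (2.21%). With the low-18S term, 14 genes were called (0.0788%), 9 higher (0.0507%) and 5 lower (0.0281%), and 10 of the 14 had groups that did not overlap. With the 4 low-18S libraries left out, 3 libraries against 3, 58 of 16987 genes were called (0.341%), 21 higher (0.124%) and 37 lower (0.218%). The 14 and the 58 share 11 genes, and all 14 kept their sign. With the term and the GC trend of each library removed, Mag and S100b were the 2 genes called (0.0113%).

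**Figure D1:**
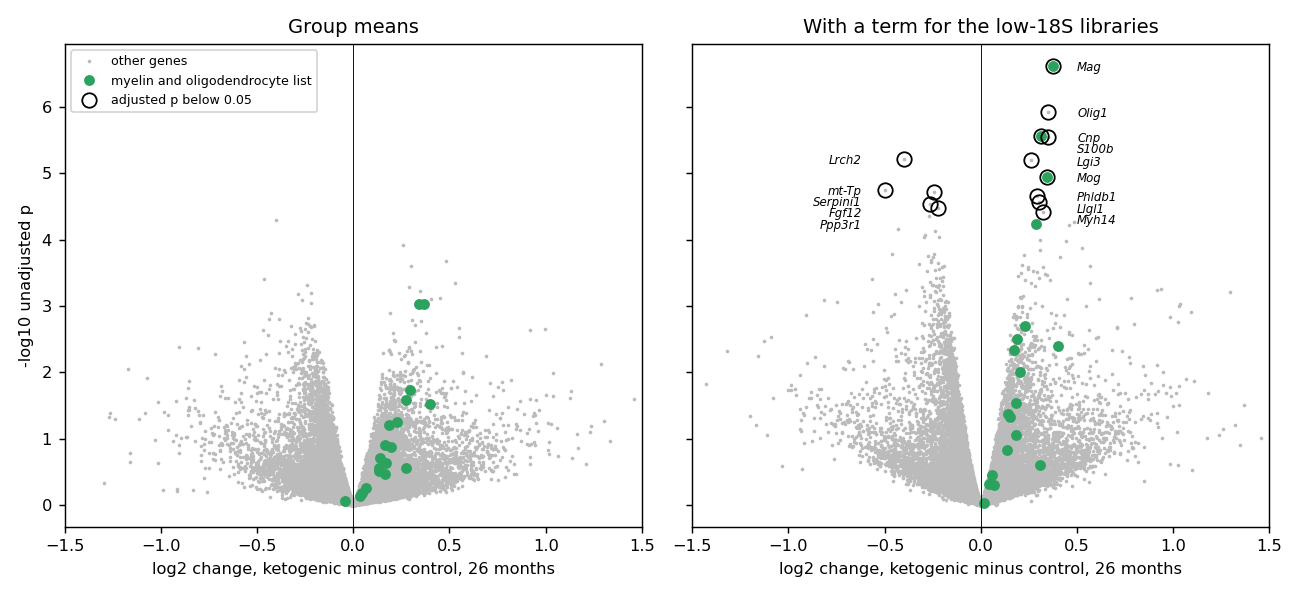
Each point is a gene: the x axis is the log2 change at 26 months (ketogenic minus control), the y axis is -log10 of the unadjusted p, in the model with group means (left) and with the term for the low-18S libraries (right); green points are the myelin and oligodendrocyte list and circles mark an adjusted p below 0.05. No gene is circled on the left and 14 are on the right, of which Mag, Cnp and Mog belong to the list; 8 and 7 genes with a change beyond the x range are not drawn.

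Mag encodes myelin-associated glycoprotein, which sits on the innermost myelin membrane and contacts the axon. The gene spans chr7:30899176-30914873 on the minus strand of mm10. It was measured at 95.05, 129, 121 and 122 CPM in K to N and 155, 152, 155 and 141 CPM in O to R. All 4 ketogenic libraries were above all 4 controls, and the low-18S library was the lowest of its group on both diets. The mean was 117 ± 15.0 CPM on the control diet and 151 ± 6.69 CPM on the ketogenic diet (SD, n = 4 each), a ratio of 1.29. On the log2 scale the change was 0.38 ± 0.06 (SE, adjusted p = 0.00427) with the low-18S term, and 0.37 ± 0.09 (SE, adjusted p = 0.857) without it. The log2 change over the alternative settings ran from 0.278 to 0.422. With the term, Mag kept its call in 7 of 8 fits that left out 1 library, and was lost without K, at an adjusted p of 0.057.

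Mog encodes myelin oligodendrocyte glycoprotein, found on the outer surface of the sheath, and spans chr17:37010743-37023398. Its levels were 30.8, 38.04, 37.9 and 38.1 CPM in K to N and 46.1, 47.2, 47.6 and 42.2 CPM in O to R, again with no overlap. Library K was the lowest control and R the lowest ketogenic library. The log2 change was 0.34 ± 0.07 (SE, adjusted p = 0.0284) with the term. It kept the call in 1 of 8 fits with the term that left out 1 library, with an adjusted p of up to 0.166 (without K).

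Cnp, the enzyme CNPase of uncompacted myelin (chr11:100574904-100591729), was at 163, 242, 239.5 and 239.5 CPM in K to N and 278, 286, 281 and 242 CPM in O to R. R was level with L, so the groups just overlapped, while the other 3 ketogenic libraries were above all controls. The log2 change was 0.31 ± 0.06 (SE, adjusted p = 0.0125) with the term, and 7 of 8 fits that left out 1 library kept the call (adjusted p = 0.112 without K). In bulk tissue, a change in the number of cells of a type and a change in RNA per cell cannot be told apart. This holds for each gene described here.

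**Figure D2:**
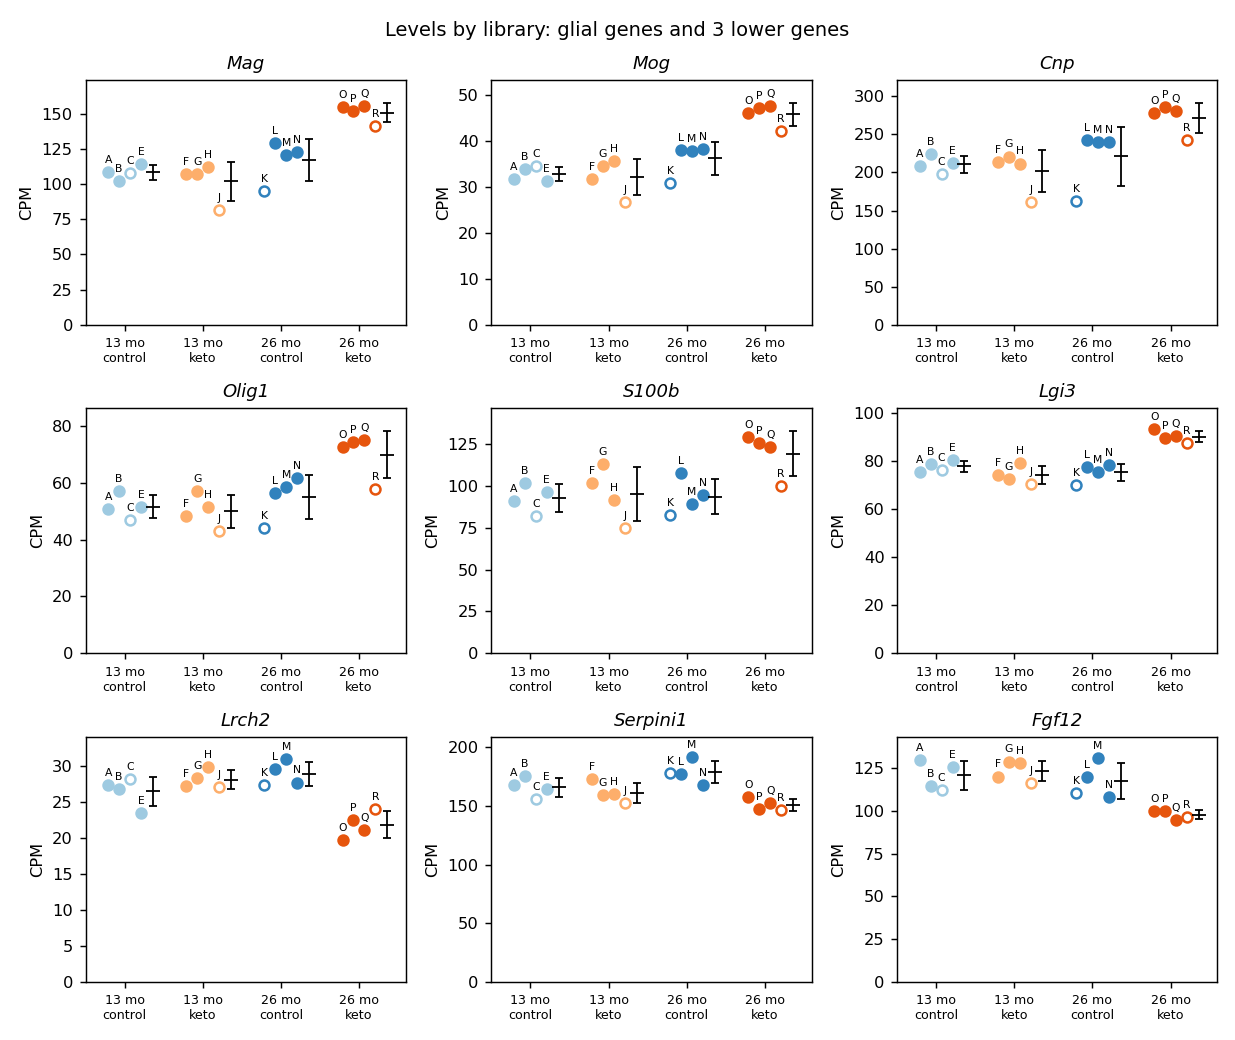
Points are single libraries, marked with their letter, at 13 and 26 months on each diet; the y axis is CPM from 0, open points are low-18S libraries, and the bar beside each group is the mean with its SD (4 libraries). For Mag, all 26-month ketogenic libraries (141 to 155 CPM) lie above all 26-month controls (95.1 to 129 CPM), and for Lrch2 all lie below.

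The list of myelin and oligodendrocyte genes had 19 members, and all 19 passed the expression filter. With the low-18S term 3 were called higher (Mag, Mog and Cnp) and none lower. Without it 18 of the 19 changes were positive, with a median log2 change of 0.17, where the median of all genes tested was 0.00135 and 50.3% were positive. At an unadjusted p below 0.05, 5 members were higher (background 2.08%) and none lower. The median was 0.0777 without K and between 0.143 and 0.228 when any other 26-month library was left out. Without the low-18S libraries it was 0.127, and 14 of the 19 changes were positive. Of all 52 gene lists, 47 had a median that moved by over 1.5 times when 1 of the 8 libraries was left out, and 26 changed sign. The 5 others were the lists of excitatory neurons, synapses, ketone bodies, olfactory bulb and mitochondrial messages. The list medians given below are thus a description of these 8 libraries.

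Mbp, the myelin basic protein that holds the membrane layers together, was at 1330, 1887, 1870 and 1636 CPM in K to N and 1973, 2033, 2285 and 1849 CPM in O to R. Its groups overlapped, because R was below L and M. The log2 change of 0.29 ± 0.06 (SE, adjusted p = 0.0594) did not pass the threshold with the term. Mobp, chosen after its values were seen because it encodes an abundant protein of compact myelin, had a log2 value of 0.18 ± 0.09 (SE, unadjusted p = 0.0621).

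At 13 months, after 1 month of the diet and in other libraries, the groups of Mag overlapped. Mag was at 109, 102, 108 and 114 CPM in the control libraries and 107, 107, 112 and 81.7 CPM in the ketogenic ones. The low-18S libraries here were C, the control at 108 CPM, and J, the ketogenic library at 81.7 CPM. J was the lowest of its group and C was not, whereas the term fits a single shift to all low-18S libraries. The 13-month log2 change of Mag was -0.10 ± 0.06 (SE, unadjusted p = 0.105) with the term, and the median of the 19 myelin genes was -0.053. No gene was called at 13 months with or without the term: edgeR gave 357 genes at an unadjusted p below 0.05 without it (2.01%) and 813 with it (4.58%). The difference between the diet effects at 26 and 13 months was tested as an interaction. With the term it was called for 2 of 17762 genes (0.0113%): Mag, at 0.48 ± 0.08 (log2, SE, adjusted p = 0.0326), and the mitochondrial tRNA gene mt-Tp. Without the term 0 genes were called by edgeR, with 783 at an unadjusted p below 0.05 (4.41%). Without the low-18S libraries the 2 genes called were mt-Tp and mt-Nd6, not Mag.

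The bases upstream of the start of transcription are shown for 4 genes that rose, because several of these genes are known targets of SOX10, the transcription factor of the oligodendrocyte lineage. They come from RefSeq on GRCm38.p6, 5′ to 3′ on the strand of the gene, and end just before the RefSeq start. Mag lies on the minus strand of chromosome 7, and its window is chr7:30914864-30915113. Mog is on the minus strand of chromosome 17, with the window chr17:37023399-37023648. The window of Cnp, on the plus strand, is chr11:100574689-100574938, and that of Phldb1, on the minus strand, is chr9:44735199-44735448. Capitals mark the letters ACAAAG, a core often bound by SOX proteins, on either strand.
Mag: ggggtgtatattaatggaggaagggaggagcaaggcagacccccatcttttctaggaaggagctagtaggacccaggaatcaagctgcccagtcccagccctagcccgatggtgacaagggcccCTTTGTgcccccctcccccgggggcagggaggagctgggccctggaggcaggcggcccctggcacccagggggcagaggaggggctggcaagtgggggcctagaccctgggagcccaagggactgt
Mog: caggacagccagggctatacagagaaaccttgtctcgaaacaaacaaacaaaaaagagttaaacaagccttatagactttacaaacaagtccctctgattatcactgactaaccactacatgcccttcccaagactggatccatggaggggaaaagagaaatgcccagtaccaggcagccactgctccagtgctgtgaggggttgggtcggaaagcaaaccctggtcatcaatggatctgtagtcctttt
Cnp: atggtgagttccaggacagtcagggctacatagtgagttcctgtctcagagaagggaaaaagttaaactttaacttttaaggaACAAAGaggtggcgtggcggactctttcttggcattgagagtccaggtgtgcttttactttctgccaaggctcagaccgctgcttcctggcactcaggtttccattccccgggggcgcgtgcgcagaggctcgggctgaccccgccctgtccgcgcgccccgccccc
Phldb1: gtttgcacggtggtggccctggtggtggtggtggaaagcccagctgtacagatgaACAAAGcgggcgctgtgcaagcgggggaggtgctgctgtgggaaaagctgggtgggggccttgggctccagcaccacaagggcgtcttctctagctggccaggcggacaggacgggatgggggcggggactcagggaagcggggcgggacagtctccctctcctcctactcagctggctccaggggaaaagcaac
Of the 14 genes called, 11 had a window of 250 bases, and 3 of these held ACAAAG: Mag, Cnp and Phldb1, 1 match each. Another SOX core searched on both strands, ACAATG, was in none of the 11, so matches of the 2 motifs did not overlap there. Of all 32851 windows, 16.5% held ACAAAG, 10.7% ACAATG and 25.2% either. Such a match is a string of letters and not a measured binding site. The windows of S100b, Llgl1 and Myh14, which also rose, held neither motif and are not shown. Olig1, Lgi3 and mt-Tp had no window.

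Olig1 encodes a transcription factor needed for oligodendrocyte maturation and repair. It was measured at 44.04, 56.2, 58.3 and 61.5 CPM in K to N and 72.4, 74.2, 75.1 and 57.7 CPM in O to R. The 3 ketogenic libraries O, P and Q were above every control, and R was below M and N. The log2 change was 0.35 ± 0.06 (SE, adjusted p = 0.0106) with the term and kept its call in 7 of 8 fits without 1 library (adjusted p = 0.104 without K). S100b, a calcium-binding protein of astrocytes that maturing oligodendrocytes also make, was at 82.8, 107, 89.03 and 94.3 CPM in K to N and 129, 125, 123 and 99.5 CPM in O to R. O, P and Q were again above every control and R was below L. Its log2 change was 0.35 ± 0.06 (SE, adjusted p = 0.0125), and 6 of 8 fits without 1 library kept it (adjusted p = 0.118 without M).

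The lists of oligodendrocyte precursors and of astrocytes were mixed in sign. Among 14 markers of oligodendrocyte precursors 7 changes were positive and 7 negative, with a median of -0.00215, and Olig1 was the 1 member called with the term. Pdgfra, the growth factor receptor that defines precursors, was at 38.9, 46.7, 46.6 and 47.4 CPM in K to N and 41.3, 40.8, 40.9 and 37.6 CPM in O to R. L, M and N were above every ketogenic library, and K was not. Its log2 value was -0.16 ± 0.07 (SE, unadjusted p = 0.0388). Olig2, the partner of Olig1, had 0.18 ± 0.09 (SE, unadjusted p = 0.0581). Of 12 astrocyte markers 7 were positive, with a median of 0.05, and S100b was the 1 called. Aldh1l1, a folate enzyme used to mark astrocytes, had 0.26 ± 0.11 (SE, unadjusted p = 0.0249) on the log2 scale.

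Among the other genes called higher, Lgi3, a secreted protein of neurons and glia that binds ADAM receptors, was at 70.2, 77.6, 75.5 and 78.3 CPM in K to N and 93.4, 89.8, 90.5 and 87.5 CPM in O to R. The groups did not overlap, and all 8 libraries lay within a narrow band of their group. Its log2 change was 0.26 ± 0.05 (SE, adjusted p = 0.0188). Phldb1, which encodes a pleckstrin-homology protein that anchors microtubules at the cell cortex, was at 85.7, 108, 97.3 and 102 CPM in K to N and 119, 124, 119 and 118 CPM in O to R. These groups did not overlap either, and the log2 change was 0.29 ± 0.06 (SE, adjusted p = 0.0389). Llgl1, a cell polarity protein, had levels of 33.4 to 39.3 CPM in the control libraries and 43.7 to 49.1 CPM in the ketogenic ones and a log2 change of 0.30 ± 0.06 (SE, adjusted p = 0.0425). Myh14, a non-muscle myosin heavy chain chosen after its values were seen, had 46.1 to 57.1 CPM in the control libraries and 58.3 to 69.00 CPM in the ketogenic ones and a log2 change of 0.32 ± 0.07 (SE, adjusted p = 0.0495). With the term, these 4 genes kept the call in 3, 2, 1 and 1 of 8 fits that left out 1 library.

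In the model with group means the 6 named genes with the smallest p among the higher ones were Lgi3, Pqlc1, Llgl1, Chadl, Phldb1 and Pmvk, none of which passed. Pqlc1, a lysosomal PQ-loop protein, was at 8.08, 10.3, 8.84 and 10.5 CPM in K to N and 12.8, 14.6, 12.6 and 12.7 CPM in O to R, with no overlap and a log2 value of 0.48 ± 0.11 (SE, unadjusted p = 0.000211). Chadl, a secreted protein related to chondroadherin, was at 5.98, 5.61, 6.96 and 8.28 CPM in K to N and 10.2, 10.1, 10.2 and 8.19 CPM in O to R, with R just under N and a log2 value of 0.53 ± 0.12 (SE, unadjusted p = 0.000445). Pmvk, phosphomevalonate kinase of sterol synthesis, had 13.3 to 15.4 CPM in the control libraries and 17.6 to 19 CPM in the ketogenic ones and 0.34 ± 0.08 (SE, unadjusted p = 0.000601).

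Lrch2, a leucine-rich repeat protein with a calponin homology domain, had the smallest p of any gene in the model with group means. The gene lies at chrX:147470375-147554081. It was at 27.3, 29.6, 31.01 and 27.7 CPM in K to N and 19.8, 22.5, 21.1 and 24.04 CPM in O to R. Every ketogenic library was below every control, with O the lowest. The mean fell from 28.9 ± 1.72 to 21.9 ± 1.84 CPM (SD, n = 4 each). Its log2 change was -0.40 ± 0.07 (SE, adjusted p = 0.0188) with the term, and the call was kept in 4 of 8 fits that left out 1 library.

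The other named genes called lower are known from neurons. Serpini1, which encodes neuroserpin, an inhibitor of tissue plasminogen activator, was at 178, 177, 191 and 168 CPM in K to N and 158, 148, 152 and 147 CPM in O to R. Its groups did not overlap, and the log2 change was -0.24 ± 0.05 (SE, adjusted p = 0.0377). Fgf12, an intracellular regulator of sodium channels, was at 111, 120.2, 131 and 108 CPM in K to N and 100.2, 100, 94.9 and 96.7 CPM in O to R. It did not overlap either, at a log2 change of -0.26 ± 0.05 (SE, adjusted p = 0.0425). Ppp3r1, the regulatory subunit of calcineurin, chosen after its values were seen, had 273 to 334 CPM in the control libraries and 253 to 265 CPM in the ketogenic ones and a log2 change of -0.22 ± 0.05 (SE, adjusted p = 0.0455). Each of these 3 kept its call in 2 of 8 fits that left out 1 library. Zdhhc21, a palmitoyl transferase, Sp3, a transcription factor, and Itfg1, an integrin-alpha repeat protein, had the next smallest p without the term. Their log2 values were -0.22 ± 0.05 (SE, unadjusted p = 0.000632), -0.29 ± 0.07 (SE, unadjusted p = 0.000664) and -0.22 ± 0.06 (SE, unadjusted p = 0.000913), each with groups that did not overlap, and none passed the threshold with or without the term.

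The mitochondrial tRNA gene mt-Tp, chosen after its values were seen, was at 13.3, 23.8, 20.9 and 15.7 CPM in K to N and 13.3, 14.1, 13.6 and 10.7 CPM in O to R. O, P, Q and R were below L, M and N, and K lay within their range. Its value fell with the term, at a log2 change of -0.50 ± 0.10 (SE, adjusted p = 0.0377). The gene is 67 bases long and had 140 (P) to 314 (L) counts in the 26-month libraries. Whether these reads came from the tRNA itself was not tested. The interaction with age for mt-Tp was -0.77 ± 0.14 (log2, SE, adjusted p = 0.0326), and its levels at 13 months were 16.9, 17.1, 12.8 and 19.5 CPM in the control libraries and 21.5, 23.8, 21.04 and 13.9 CPM in the ketogenic ones.

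The base composition of transcripts moved with the comparison at 26 months. From the lowest to the highest quartile of genes by GC content, the median log2 change was -0.0591, -0.0189, 0.0222 and 0.0537, where the 13-month medians lay between -0.00882 and 0.00571. The 9 genes called higher had 48.3% to 61.1% GC, and the 5 called lower 36.7% to 44.8%. The contrast between the highest and the lowest quartile was -0.203 in K, -0.00159 in L, 0.0214 in M and 0.137 in N, and 0.122 in O, 0.175 in P, 0.209 in Q and -0.0645 in R. L, M and N were thus within the range of the ketogenic libraries, and K was below it. That range reached down to L and M only through R, a low-18S library. Without K and R, L and M were below O, P and Q, and N lay between O and P. With this trend removed from each library, 0 genes were called by edgeR without the low-18S term (612 at an unadjusted p below 0.05, 3.45%), and 2 with it. These 2 were Mag, at a log2 change of 0.318, and S100b, at 0.352, each with an adjusted p of 0.0248. Cnp, Olig1 and Mog were then at 0.0531, and the 5 lower genes between 0.117 and 0.407. The median of the myelin list was 0.196 after the correction.

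**Figure D3:**
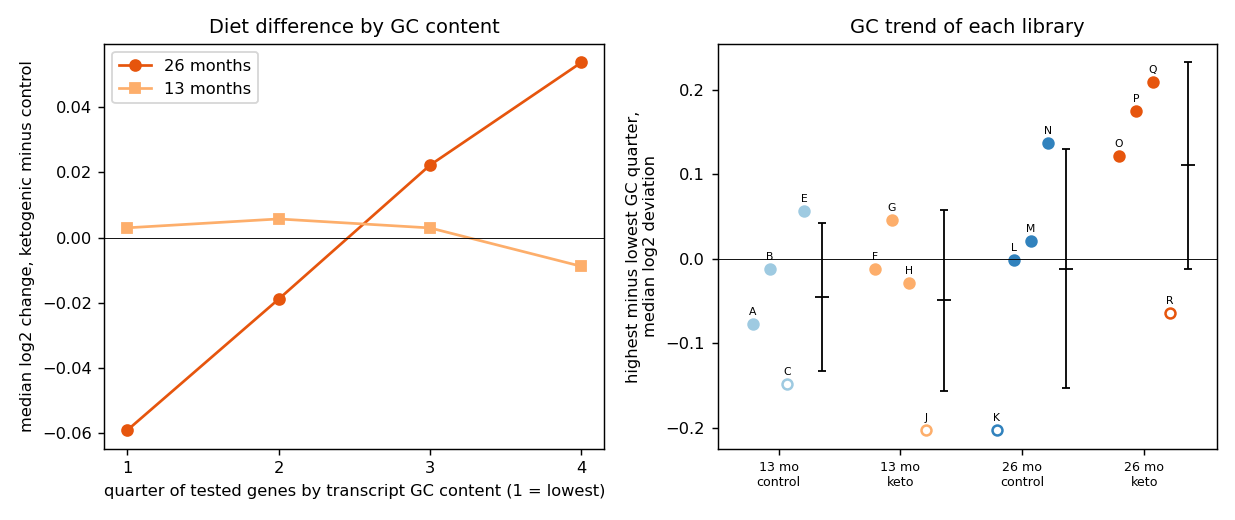
Left, the median log2 change (ketogenic minus control) in each quartile of genes by transcript GC content at 26 and 13 months; right, for each library, the median log2 deviation from the mean of all libraries in the highest GC quartile minus that in the lowest, with open points for low-18S libraries and bars for mean and SD of 4. The 26-month line rises from -0.0591 to 0.0537, and K, at -0.203, and R, at -0.0645, are the lowest of their groups.

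The enzymes and carriers of ketone bodies showed no called change. Of 14 listed genes 13 passed the filter, 9 with a positive and 4 with a negative log2 value, with a median of 0.06. None was higher at an unadjusted p below 0.05, 1 was lower (background 3.28%), and none had groups that did not overlap. Hcar2, the receptor for beta-hydroxybutyrate on immune cells, did not pass the filter.

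Bdh1, the mitochondrial dehydrogenase that opens beta-hydroxybutyrate use, was at 21.3, 21.8, 23.1 and 23.2 CPM in K to N and 22.2, 23.8, 21.5 and 25.4 CPM in O to R. Oxct1, the enzyme that commits acetoacetate to oxidation, was at 163, 170, 171 and 179.8 CPM in K to N and 175, 173, 167 and 166 CPM in O to R. The groups overlapped for both genes, at log2 values of 0.06 ± 0.08 (SE, unadjusted p = 0.468) and -0.01 ± 0.05 (SE, unadjusted p = 0.907). Acat1, which splits acetoacetyl-CoA, had 53.5 to 57.8 CPM in the control libraries and 49.2 to 54.7 CPM in the ketogenic ones and a log2 value of -0.10 ± 0.06 (SE, unadjusted p = 0.0924). The standard errors of these 3 genes were between 0.05 and 0.08 on the log2 scale.

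The carriers differed in sign. Slc16a7, which encodes MCT2, the high-affinity monocarboxylate carrier of neurons, was at 44.1, 49.2, 46.4 and 40.1 CPM in K to N and 37.6, 39.2, 36.4 and 41.9 CPM in O to R. R was above N, and the other ketogenic libraries were below every control. The log2 value was -0.21 ± 0.08 (SE, unadjusted p = 0.0165), adjusted p = 0.857. Slc16a1, which encodes MCT1 of endothelium and oligodendrocytes, was at 32.6, 43.6, 42.4 and 39.4 CPM in K to N and 40.4, 46.9, 37.4 and 42.04 CPM in O to R, with a log2 value of 0.08 ± 0.10 (SE, unadjusted p = 0.465) that had the other sign without the low-18S libraries (-0.01). Slc16a3 and Slc16a6 had 0.10 ± 0.24 and 0.05 ± 0.14 (log2, SE).

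Among the other enzymes of the list, Hmgcll1 had -0.02 ± 0.14, Acss2 0.11 ± 0.10 and Aacs 0.10 ± 0.07 (log2, SE), all with overlapping groups. Bdh2, a cytosolic dehydrogenase, lay at 1.05 to 1.48 CPM in the control libraries and 1.23 to 2.38 CPM in the ketogenic ones, with a log2 value of 0.49 ± 0.28 (SE, unadjusted p = 0.0964).

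The other fuel pathways had medians close to that of all genes. Of 23 genes of fatty acid oxidation 19 were positive, with a median log2 change of 0.07, and none had an unadjusted p below 0.05. Cpt1a, the carnitine transferase that admits fatty acids to mitochondria, was at 17.3, 27.7, 24.96 and 24.4 CPM in K to N and 25.9, 25.1, 23.5 and 25.3 CPM in O to R, a log2 value of 0.09 ± 0.13 (SE, unadjusted p = 0.507). Hadh and Eci1, the members with the smallest p, had 0.19 ± 0.10 (SE, unadjusted p = 0.0621) and 0.23 ± 0.14 (SE, unadjusted p = 0.11), and Acaa1a, the next, had 0.15 ± 0.09 (SE, unadjusted p = 0.121). Of 18 tested PPAR target genes 14 were positive, with a median of 0.09. Pdk4, the kinase that shuts pyruvate oxidation and a common marker of fasting in other organs, was at 8.45, 10, 8.51 and 8.36 CPM in K to N and 7.28, 7.06, 13.03 and 8.09 CPM in O to R. Q was the highest library and the other ketogenic ones were below every control, for a log2 value of 0.01 ± 0.20 (SE, unadjusted p = 0.951). Fabp3 had -0.29 ± 0.12 (SE, unadjusted p = 0.0333) and Ucp3 0.46 ± 0.23 (SE, unadjusted p = 0.067).

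Glycolysis and glucose uptake had 21 of 24 members positive, with a median of 0.04 and none at an unadjusted p below 0.05. Pkm, Pfkm and Ldhb had the smallest p, with log2 values of 0.14, 0.12 and 0.12. The tricarboxylic acid cycle (21 genes) had 14 positive and a median of 0.02. Among 49 nuclear genes of oxidative phosphorylation 33 were positive, 4 higher (background 2.08%) and 2 lower (background 3.28%) at an unadjusted p below 0.05, with a median of 0.04. Cox7b of complex IV had -0.27 ± 0.09 (SE, unadjusted p = 0.00984) with no overlap and Uqcrb of complex III -0.25 ± 0.09 (SE, unadjusted p = 0.0143). Cholesterol synthesis (24 genes) had a median of 0.04 and fatty acid synthesis (17 genes) of 0.04. In each of these lists 1 member was higher at an unadjusted p below 0.05 (background 2.08%) and none lower.

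Messages of the mitochondrial genome had lower values on the ketogenic diet, without passing the test. Of 13 listed genes 7 passed the filter. At 26 months 3 of the 13 had no counts in any control library and 5 had none in any ketogenic library. The reason was not tested. All 7 tested were negative, with a median log2 change of -0.38, and 5 had an unadjusted p below 0.05 (background 3.28%). With the low-18S term 2 of the 7 did, with a median of -0.371. In that fit 1814 of all 17762 genes had an unadjusted p below 0.05, in either direction. At 13 months all 7 were positive, with a median of 0.305. mt-Co1, a subunit of cytochrome oxidase, was at 5587, 7284, 7460 and 5002 CPM in K to N and 4809, 4856, 4556 and 5238 CPM in O to R. L and M were high, whereas N and K lay close to the ketogenic libraries. The log2 value was -0.38 ± 0.11 (SE, unadjusted p = 0.00338), adjusted p = 0.857. mt-Nd1 had -0.39 ± 0.13 (SE, unadjusted p = 0.00879) and mt-Cytb -0.34 ± 0.14 (SE, unadjusted p = 0.0286). Without the low-18S libraries mt-Nd6 was the 1 member called, at a log2 change of -0.34 ± 0.06 (SE, adjusted p = 0.0117), and -0.03 ± 0.29 with the low-18S term. Its level was 389 CPM in K against 1000 to 1253 CPM in the other controls.

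**Figure D4:**
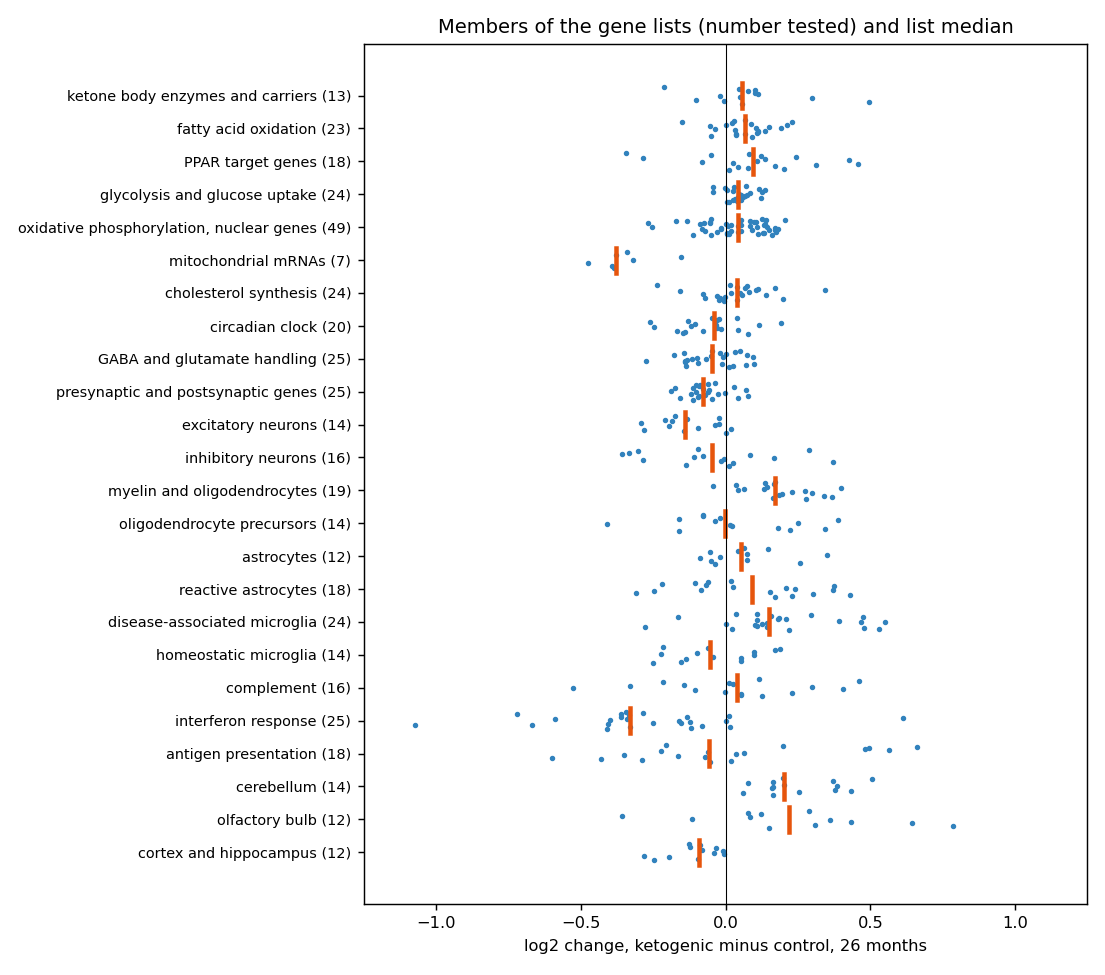
Each blue point is a gene of the list named on the left (number of members tested in brackets), the x axis is its log2 change at 26 months (ketogenic minus control, model with group means), and the orange bar is the list median. The myelin list has its median at 0.17 and the mitochondrial messages at -0.38, where the median of all genes is 0.00135.

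Neuronal gene lists leaned to the negative side, by small amounts. Of 14 excitatory neuron markers 12 were negative (median -0.14), and of 25 genes of synapses 21 were negative (median -0.08), with 1 member of each lower at an unadjusted p below 0.05 (background 3.28%). Neurod6, a transcription factor of cortical and hippocampal pyramidal cells, was at 25.5, 29.8, 30.4 and 27.4 CPM in K to N and 22.9, 21.99, 20.6 and 27.04 CPM in O to R. R was within the control range and O, P and Q were below it. Its log2 value was -0.28 ± 0.10 (SE, unadjusted p = 0.00864), and without the low-18S libraries it was called, at -0.42 (adjusted p = 0.022). Gria2, a subunit of AMPA receptors, had -0.19 ± 0.08 (SE, unadjusted p = 0.034), and Syt1, the calcium sensor of vesicle release, -0.16 ± 0.08 (SE, unadjusted p = 0.0514). Of 16 inhibitory neuron markers 10 were negative, with a median of -0.05, 1 higher (background 2.08%) and 3 lower (background 3.28%) at an unadjusted p below 0.05.

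Of 25 genes that handle GABA and glutamate 16 were negative, with a median of -0.05, and 5 were lower at an unadjusted p below 0.05 (background 3.28%). Gabra5, the receptor subunit of extrasynaptic inhibition in the hippocampus, was at 29.6, 34.8, 35.4 and 34.6 CPM in K to N and 28.1, 23.9, 27.6 and 30.6 CPM in O to R. R overlapped with K, the 2 low-18S libraries. Its log2 value was -0.28 ± 0.08 (SE, unadjusted p = 0.00212), and it was called without the low-18S libraries, at -0.39 (adjusted p = 0.0184). Gabrb2, another receptor subunit, had -0.14 ± 0.05 (SE, unadjusted p = 0.0161) with no overlap.

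Markers of brain regions were measured beside these neuronal values. All 12 genes of cortex and hippocampus were negative (median -0.09), as were 11 of 12 of striatum (median -0.10), 8 of 10 of thalamus (median -0.09) and 7 of 12 tested of hypothalamus (median -0.30). All 14 of cerebellum were positive (median 0.20), as were 10 of 12 tested of olfactory bulb (median 0.22). Single libraries moved these medians: leaving out 1 gave -0.202 (K) to -0.0318 (M) for cortex and hippocampus, -0.223 (O) to 0.0565 (M) for striatum, and -0.176 (K) to -0.0446 (M) for thalamus. For hypothalamus it gave -0.528 (P) to 0.00507 (L), and for cerebellum 0.119 (P) to 0.298 (K). Without the low-18S libraries the cerebellar median was 0.378. Summed, the cerebellar list ran from 1590 to 1770 CPM in the controls and from 1660 to 2160 CPM in the ketogenic libraries, with P the highest. Mef2c, a transcription factor of forebrain neurons, had -0.25 ± 0.10 (SE, unadjusted p = 0.0196) with no overlap, and Fat2, an adhesion protein of cerebellar granule cells, 0.50 ± 0.23 (SE, unadjusted p = 0.0447). At 13 months the medians were 0.13 for cortex and hippocampus, -0.0789 for striatum, -0.295 for thalamus, 0.388 for hypothalamus, -0.00572 for cerebellum and -0.0294 for olfactory bulb. The part of regional make-up in the neuronal and glial values was not tested.

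Of 21 tested neuropeptides 14 were negative, with a median of -0.18, which ran from -0.291 without K to -0.0552 without M. Npy had -0.30 ± 0.13 (SE, unadjusted p = 0.0288), Vip -0.29 ± 0.13 (SE, unadjusted p = 0.0382) and Oxt, which encodes oxytocin and comes from few hypothalamic cells, -1.27 ± 0.59 (SE, unadjusted p = 0.0468), from 1.05 to 6.74 CPM in the control libraries and 1.005 to 2.30 CPM in the ketogenic ones. Of 21 immediate early genes 14 were negative, with a median of -0.08. Jun had 0.30 ± 0.10 (SE, unadjusted p = 0.0105) and Ptgs2 -0.46 ± 0.20 (SE, unadjusted p = 0.0369). Among neurotrophic factors and receptors 8 of 13 were positive (median 0.02). Bdnf, the main growth factor of cortical neurons, was at 12.2, 14.2, 13.8 and 13.3 CPM in K to N and 11.5, 16.1, 14.6 and 12.1 CPM in O to R, which gave 0.02 ± 0.11 (SE, unadjusted p = 0.893). Of 13 genes of KATP channels and adenosine signalling 9 were positive, with a median of 0.09 and none at an unadjusted p below 0.05.

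Some genes that mark reactive glia were on the higher side, again short of the threshold, while the reactive astrocyte and complement lists were mixed in sign. C4b, a complement component that rises in ageing brain, was at 90.7, 108, 96.7 and 118 CPM in K to N and 131, 101, 161 and 114 CPM in O to R. O and Q were above every control, and P and R were among them. The log2 value was 0.30 ± 0.11 (SE, unadjusted p = 0.0168), 0.39 without P and 0.161 without Q. Serpina3n, an acute-phase protease inhibitor of reactive astrocytes, was at 14.99, 20.4, 20.1 and 23.04 CPM in K to N and 24.5, 20.1, 35.6 and 24.7 CPM in O to R, for 0.43 ± 0.15 (SE, unadjusted p = 0.0102) with 0.53 without P and 0.244 without Q. Both belong to families with near-identical copies, so their counts are uncertain to that degree. Gfap, the astrocyte filament protein, was at 194, 276, 246 and 275 CPM in K to N and 273, 283, 312 and 247 CPM in O to R, with overlapping groups and a log2 value of 0.17 ± 0.13 (SE, unadjusted p = 0.207). Of 18 reactive astrocyte genes 11 were positive (median 0.09) and of 16 complement genes 10 (median 0.04). At an unadjusted p below 0.05, 2 reactive astrocyte genes were higher (background 2.08%) and 1 lower (background 3.28%). For complement 2 were higher and 0 lower. The reactive astrocyte median ran from 0.0236 without Q to 0.176 without L.

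Of 24 genes tested from the disease-associated microglia list 22 were positive, with a median of 0.15, where 50.3% of all genes were positive, and 2 were higher at an unadjusted p below 0.05 (background 2.08%). The median ran from 0.101 without Q to 0.232 without R. Lyz2, the lysozyme of macrophages, was at 11.8, 19.02, 13.1 and 10.7 CPM in K to N and 17.8, 25.3, 19.1 and 14.2 CPM in O to R. P was the highest and the groups overlapped, for 0.47 ± 0.19 (SE, unadjusted p = 0.021). Itgb2, the shared chain of leukocyte integrins, had 0.46 ± 0.18 (SE, unadjusted p = 0.0174). Clec7a, Cst7 and Itgax, the classic genes of that state, were low, with Itgax, for instance, at 1.05 to 2.95 CPM in the control libraries and 1.87 to 3.67 CPM in the ketogenic ones. Their log2 values were 0.48 ± 0.34 (SE, unadjusted p = 0.18), 0.14 ± 0.43 (SE, unadjusted p = 0.744) and 0.53 ± 0.37 (SE, unadjusted p = 0.166). Of 14 homeostatic microglia genes 6 were positive (median -0.05), and P2ry12, the purine receptor of resting microglia, had -0.25 ± 0.10 (SE, unadjusted p = 0.0251).

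The interferon response had 21 of 25 tested members negative, with a median log2 change of -0.33, and 4 lower at an unadjusted p below 0.05 (background 3.28%). The median ran from -0.398 without Q to -0.197 without K, and was also moved by over 1.5 times without L or R. Gbp3, a guanylate-binding protein, was at 8.57, 10.2, 5.97 and 4.76 CPM in K to N and 5.53, 4.14, 5.18 and 3.21 CPM in O to R. K and L were the highest of all, and M and N lay closer to the ketogenic libraries, for -0.72 ± 0.23 (SE, unadjusted p = 0.00523). Ifi44 had -1.07 ± 0.39 (SE, unadjusted p = 0.0122) and Ddx58, which encodes the RNA sensor RIG-I, -0.28 ± 0.13 (SE, unadjusted p = 0.0397). Without the low-18S libraries the median of this list was -0.10. Of 18 antigen presentation genes 8 were positive (median -0.06), among them Cd74 at 0.56 ± 0.26 (SE, unadjusted p = 0.0437) and H2-Eb1 at 0.66 ± 0.36 (SE, unadjusted p = 0.0826). Of 8 tested inflammasome and cytokine genes 3 were positive (median -0.04), and Nlrp3, the sensor of the inflammasome that ketone bodies are known to restrain, was at 0.682 to 1.23 CPM in the control libraries and 0.589 to 1.09 CPM in the ketogenic ones, with -0.20 ± 0.35 (SE, unadjusted p = 0.582).

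Stress and housekeeping lists showed few differences. In the lysosome and autophagy list 19 of 24 were positive, with a median of 0.10, and 3 were higher at an unadjusted p below 0.05 (background 2.08%). Becn1, the scaffold of autophagosome formation, was at 32.9, 32.3, 33.5 and 35.2 CPM in K to N and 37.9, 37.1, 39.9 and 37.5 CPM in O to R. Its groups did not overlap, for 0.19 ± 0.07 (SE, unadjusted p = 0.0152). Ctsz, a lysosomal protease, had 0.21 ± 0.09 (SE, unadjusted p = 0.0315) without overlap and Npc2, the sterol carrier of lysosomes, 0.20 ± 0.09 (SE, unadjusted p = 0.036). Integrated stress response genes had a median of 0.07 (14 of 19 positive), NRF2 targets 0.01 (9 of 18), heat shock genes -0.0033 (10 of 21), and sirtuin, NAD and antioxidant genes -0.02 (10 of 21). Hmox1, the inducible heme oxygenase, was at 2.05 to 2.88 CPM in the control libraries and 3.23 to 3.53 CPM in the ketogenic ones with no overlap, for 0.47 ± 0.19 (SE, unadjusted p = 0.0229). Of 38 ribosomal protein genes 15 were positive (median -0.01).

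In the insulin, IGF and FOXO list 15 of 23 were positive, with a median of 0.03. Irs1, the insulin receptor substrate, was at 26.03, 21.8, 21.9 and 21.6 CPM in K to N and 25.9, 29.7, 27.4 and 24.3 CPM in O to R. K lay within the ketogenic range and the other controls below it, and Irs1 was called without the low-18S libraries, at 0.35 (adjusted p = 0.0491), after 0.22 ± 0.09 (SE, unadjusted p = 0.0167) with all of them. Glucocorticoid-responsive genes had 9 of 18 positive (median -0.02), and Fkbp5, a chaperone induced by corticosterone, ranged from 25.1 to 29.5 CPM in the control libraries and 16.04 to 36.1 CPM in the ketogenic ones, for -0.19 ± 0.22 (SE, unadjusted p = 0.408).

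Of 20 circadian clock genes 15 were negative, with a median of -0.04. Clock, the activator of the daily loop, was at 113, 105, 105 and 104 CPM in K to N and 94.2, 96.2, 93.2 and 102 CPM in O to R. Its groups did not overlap, at -0.15 ± 0.06 (SE, unadjusted p = 0.0149). Nr1d2 also did not overlap, at -0.12 ± 0.06 (SE, unadjusted p = 0.0683), and Nr1d1 had -0.25 ± 0.12 (SE, unadjusted p = 0.0537). Dbp, a strongly rhythmic output of the clock, was at 31.3, 37.8, 40.4 and 40.5 CPM in K to N and 43.9, 36.9, 39.9 and 41.3 CPM in O to R, for 0.12 ± 0.09 (SE, unadjusted p = 0.237). The hour of harvest is not given in the sources used here.

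With all libraries the medians of the vascular and border lists were close to 0, and each was lower without the low-18S libraries. Endothelial genes had 7 of 14 positive (median -0.01), pericyte and smooth muscle genes 6 of 12 (median 0.00547), meningeal fibroblast and collagen genes 4 of 13 (median -0.02), choroid plexus genes 3 of 13 (median -0.06) and ependymal genes 4 of 11 tested (median -0.08). Without the low-18S libraries these medians were, in the same order, -0.072, -0.165, -0.2, -0.374 and -0.269. Rgs5, the marker of pericytes, was at 54.3, 78.7, 70.9 and 57.1 CPM in K to N and 48.4, 48.2, 47.3 and 59.8 CPM in O to R. R lay within the control range and O, P and Q below it. Rgs5 was called without the low-18S libraries, at -0.52 (adjusted p = 0.0184). Ogn, a small proteoglycan of the meninges, had -0.56 ± 0.18 (SE, unadjusted p = 0.00578). Col1a1, the main collagen of bone and connective tissue, was at 4.01, 8.56, 6.46 and 8.36 CPM in K to N and 9.96, 51.5, 9.36 and 5.997 CPM in O to R, with P far above the rest.

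Blood transcripts differed between libraries and were highest in P and Q. Summed over 9 red blood cell genes, K to N had 494, 557, 302 and 236 CPM and O to R had 444, 1170, 1380 and 342 CPM. P and Q were the 2 high libraries, and O and R lay within the control range. All 8 tested members were positive, with a median log2 change of 1.2, and 2 had an unadjusted p below 0.05 (background 2.08%). Without Q the median was 0.791. Slc4a1, the anion exchanger of red cells, was at 0.925, 3.71, 1.80 and 0.574 CPM in K to N and 1.42, 13.4, 10.7 and 1.45 CPM in O to R, for 1.93 ± 0.82 (SE, unadjusted p = 0.0347). Hba-a1, an alpha globin with a near-identical copy, was at 109, 115, 54.2 and 42.7 CPM in K to N and 92.5, 264, 329.7 and 73.5 CPM in O to R.

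Library P held transcripts of neutrophils and their marrow precursors. S100a9, a calcium-binding protein that fills neutrophils, was at 0.308, 0.379, 0.245 and 0.246 CPM in K to N and 1.17, 16.2, 0.792 and 0.964 CPM in O to R. P had 161 counts and the other 7 libraries 3 to 18. All ketogenic libraries were above the controls, and the log2 value of 3.92 ± 1.0 (SE, unadjusted p = 0.00148) was 1.68 without P. Of 16 listed granulocyte genes 4 passed the filter. Those that did not included S100a8, with 105 counts in P and at most 19 elsewhere at 26 months, Ltf, with 98 and at most 23, and Elane, with 12 and at most 1. The summed list was 5.55 to 12.0 CPM in the controls, 75.1 CPM in P and 10 to 11.7 CPM in O, Q and R. Without P its median over the tested members was -0.12, after 0.46 with it.

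Igkc and Ighm, the antibody chains of B and plasma cells, were also high in P. Igkc was at 1.23, 0.455, 1.88 and 2.05 CPM in K to N and 7.70, 22.8, 1.80 and 0.964 CPM in O to R, and Ighm at 14.4, 11.7, 12.1 and 12.6 CPM in K to N and 26.6, 51.8, 15.4 and 13.1 CPM in O to R. O and P were above the other 26-month libraries for both genes. The log2 values were 2.54 ± 0.85 (SE, unadjusted p = 0.0101) and 1.04 ± 0.35 (SE, unadjusted p = 0.0102), and 1.29 and 0.518 without P. The T cell genes Cd3e, Cd3d and Cd3g had at most 8 counts in any 26-month library. The part of blood and marrow transcripts in the immune values above was not tested. For the 14 genes called with the low-18S term, leaving out P kept the sign of all 14 and the call of 6, and 8 genes were called in all (0.0439%).

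**Figure D5:**
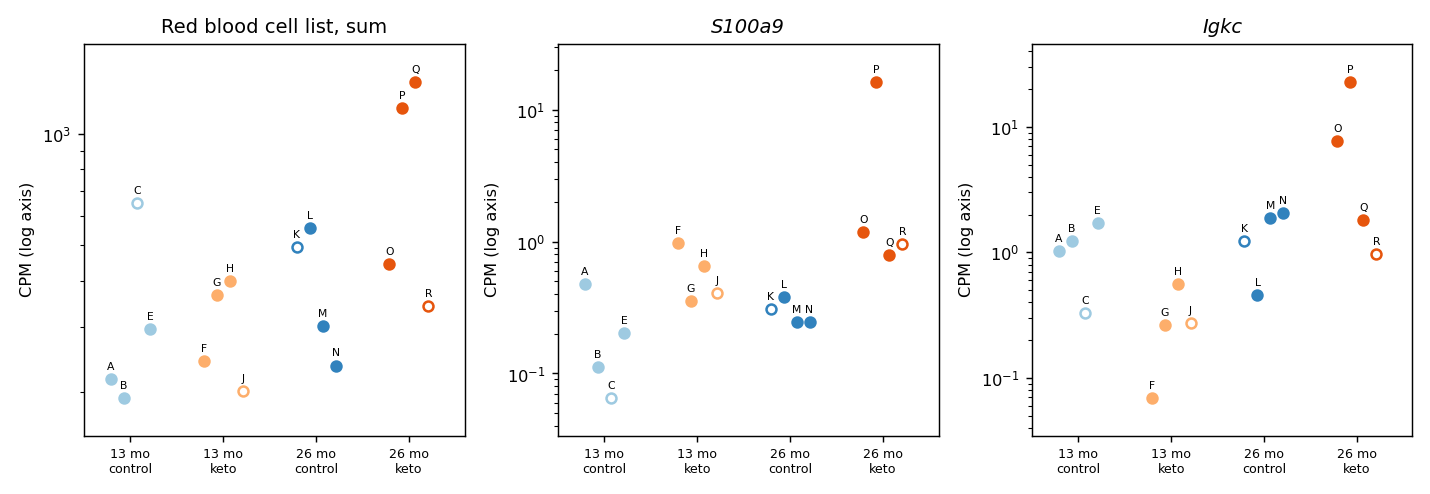
Points are single libraries, marked with their letter, by age and diet; the y axes are log-scaled CPM of the summed red blood cell list (left), S100a9 (middle) and Igkc (right), with open points for low-18S libraries. P stands highest for S100a9 (16.2 CPM) and Igkc (22.8 CPM), and Q and P are highest for red blood cells (1380 and 1170 CPM).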

How the data were processed

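RNA sequencing of mouse brain was analysed from the table of read counts per gene that the authors deposited, with 1 column per library and 48440 genes. Reads were handled with Trimmomatic, FastQC and STAR, and the build was mm10, per the submitters' processing notes. How reads were counted (program, strand setting, annotation) is not given in the sources used here, so overlapping, antisense and near-identical genes are uncertain. Library kits that keep the strand are named in the labels' protocols.

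Counts were tested with edgeR 4.0.16 in R 4.3.3: default expression filter (17762 genes kept), TMM scaling, 1 robust quasi-likelihood model with a mean for each of the 4 groups over all 16 libraries, and Benjamini-Hochberg adjustment over all genes tested, with a threshold of 0.05. CPM were computed from total counts and TMM factors. Depth was 11229822 to 15244460 counts in the 26-month libraries. Alternatives were another scaling, DESeq2 1.42.0, other filters, a term for libraries with an 18S share under 1%, leaving those or single libraries out, and, added after the data were seen, removal of each library's trend with GC content and leaving out single libraries with the term. GC content came from the GENCODE annotation of the same build for 17700 of the tested genes, and promoter windows from RefSeq. The models were also run on simulated counts with planted changes and a shared low-18S effect, but no GC trend of each library. That run cannot decide whether the calls here are right, because the simulation took the form of the model with the term.

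The comparison, the 52 gene lists and the 947 list entries were chosen with earlier results of these data known. Named genes were (1) at 26 months, up to 12 called genes in each direction by adjusted p, or, where fewer passed, up to 6 with the smallest p as values, without unnamed models and RNA genes such as mt-T; (2) all tested genes of the ketone body list and 16 fixed genes; (3) in each list, up to 6 called or else 3 smallest-p members; and (4) for the interaction, up to 6 called genes. Genes outside these rules are said to be chosen after their values were seen. Of genes whose groups did not overlap only counts were taken. A few genes that these rules name are not reported here. Coordinates count from 1.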

Additional observations from a re-analysis of the deposited data

Results flagged for a closer look

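Across 98 named genes and both 26-month groups, 23 of 196 combinations had 1 library set apart from the other 3 by more than Dixon's critical value for 4 samples. Chance alone gives about 1 in 20 groups such a library, and genes of 1 library are not independent. The library was K for Mog (30.8 CPM), Cnp (163), Pdgfra (38.9), Hmgcll1 (16.9), Acss2 (34.0), Hadh (11.5), Fabp3 (7.53), Ldhb (208), Irs1 (26.0), Clock (113) and Gabra5 (29.5 CPM). It was R for Olig1 (57.7 CPM), Pdgfra (37.6), Chadl (8.19), Nr1d2 (92.0) and Rgs5 (59.8 CPM). P was apart for S100a9 (16.2 CPM), Col1a1 (51.5), Pqlc1 (14.6), Vip (10.9) and Hadh (12.2 CPM). Q was apart for Slc16a3 (3.53 CPM) and L for Pdk4 (10 CPM). K and R are the low-18S libraries of their groups.

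The effect of the diet differed between 26 and 13 months for Mag, by a log2 of 0.475, and for mt-Tp, by -0.768, in the interaction test with the low-18S term. Mag had no such call without the term or without the low-18S libraries.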

How the results depend on the processing

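The main choice was the handling of the low-18S libraries. Without a term for them, no gene was called at 26 months under another scaling, DESeq2, other filters, the 26-month libraries alone, non-robust dispersion, a fold of 1.2, GC correction or leaving out any library. With the term 14 genes were called (9 higher, 5 lower), without the low-18S libraries 58 (21 and 37), with the term and no P 8 (7 and 1), and with the term and GC correction 2 (2 higher). Over fits that left out 1 library, with and without the term, the count ran from 0 to 69 (0 to 26 higher, 0 to 43 lower). With the term it was 2 without K, 5 without L, 3 without M, 69 without N, 3 without O, 8 without P, 5 without Q and 28 without R. The interaction had 2 genes with the term and 2 without the low-18S libraries. In the model with group means it had 0 with all libraries and 0 without P. That model also gave 0 without P and G, the 13-month library with 1912 counts of Alb, the albumin of liver. The interaction with the term was not examined without P. The cause of these differences was not tested.

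Of 98 named genes, 86 kept their sign in all settings. The other 12 had adjusted p of at least 0.749 wherever the sign changed. Without the low-18S libraries Bdh1 was at -0.011, Hmgcll1 at 0.0714, Slc16a1 at -0.0115 and Cpt1a at -0.0438 (log2). With GC correction Oxct1 was at 0.00445 and Hmgcll1 at 0.039, and with the term as well at 0.00479 and 0.037, and mt-Nd6 at 0.0718. With the term and no P, Bdnf was at -0.0542 and mt-Nd6 at 0.0123. Leaving out 1 library gave log2 ranges of -0.0299 to 0.019 for Oxct1, -0.0839 to 0.129 for Hmgcll1, -0.00866 to 0.152 for Slc16a1, -0.0817 to 0.285 for Slc16a3, -0.0494 to 0.187 for Slc16a6, -0.0494 to 0.285 for Cst7, -0.234 to 0.123 for Pdk4, -0.0407 to 0.18 for Cpt1a, -0.369 to 0.0301 for Nlrp3, -0.0709 to 0.094 for Bdnf and -0.418 to 0.0616 for mt-Nd6.

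No paired analysis was possible because the library letters differ between groups and pair no libraries. Depth limits genes of few counts, such as Cst7 and Nlrp3, most; 4 libraries a group and the unknown relation of libraries to animals limit all of them.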

Other observations

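A few more of the 58 genes called without the low-18S libraries are given here as single genes. They were chosen after their values were seen, and the comparison is 3 libraries against 3. Cntn2, the adhesion protein that clusters potassium channels beside the node, was at 148, 162, 144 and 154 CPM in K to N and 169, 190, 191 and 153 CPM in O to R. O, P and Q were above every control and R was among them. Its log2 change was 0.26 ± 0.06 (SE, adjusted p = 0.0365). Omg, a myelin glycoprotein that neurons also make, went the other way, from 66.2 to 79.2 CPM in the control libraries and 56.1 to 72.6 CPM in the ketogenic ones, with a log2 change of -0.30 ± 0.07 (SE, adjusted p = 0.0365). R was again within the control range.

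In the same fit the lower genes included Gng2, a G-protein gamma subunit, at -0.33 (adjusted p = 0.0116), and Fam171b, at -0.31 (adjusted p = 0.0116). Fam171b was at 212, 245, 256 and 241 CPM in K to N and 198, 199.7, 200.3 and 207 CPM in O to R, so all 4 ketogenic libraries, R included, were below all controls. Fat1, a giant cadherin of glia, was higher at 0.35 (adjusted p = 0.0116), and R was within the control range.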
